A study of Mus musculus with 9 samples.

Results

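The serpins are a large family of protease inhibitors and related proteins, and 37 of their genes, measured by 50 probe sets, were compared between livers of mice on a high-fat diet (HFD) and on a control diet. A gene counted as a member when its symbol began with Serpin, a clade letter from a to i and a number (clade E is not analysed here), and only probe sets paired with exactly 1 symbol were used, out of 17514 genes and 41782 probe sets in all. All mice were c57Bl/6 and ate chow until the study. The 4 arrays labelled control came from mice on a control diet that the labels do not describe further, and the 5 arrays labelled HFD came from mice on a Harlan-Teklad diet with 21% fat, 42% of its calories being fat. Genetic changes, sex, age and time on the diet are not given in the sources used here, nor is it stated whether arrays came from separate animals, so the p-values below describe scatter among these 9 arrays, some of which may be technical.

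An inhibitory serpin offers its reactive centre loop to a protease as bait. Once the loop is cut, the serpin changes shape and traps the enzyme in a covalent complex. The liver makes most of the serpins of blood plasma, among them antitrypsin, antithrombin and antiplasmin, and some members have lost inhibition and carry hormones or fold collagen instead. The clades, named by letter, follow sequence relationship. Clade A holds secreted proteins of the antitrypsin and antichymotrypsin type with the hormone carriers, and clade B holds serpins that mostly stay inside cells.

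Each value is the log2 signal of a probe set less a baseline, described as that probe set's median across samples. For Serpina10 the values nearest the baseline were 0.18 (control replicate 4) and -0.18 (HFD replicate 1), with none on it. The number of arrays here is odd, so their median would fall on a value, and the baseline was not that median. Which samples it was taken over cannot be read from these values. Values can be compared between arrays but, being centred, show no level. For the same reason, the presence of hepatocyte markers could not be checked by level. Differences between diets are HFD minus control with the standard error of the limma fit (4 control and 5 HFD arrays), and the threshold is a Benjamini-Hochberg adjusted p of 0.05 over all 41782 probe sets. The standard deviation over all probe sets was 0.22 to 0.27 in 8 arrays and 0.33 in HFD replicate 5, and no array was identical to another. Because tissue was measured in bulk, fewer cells of a type and less RNA per cell cannot be told apart.

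Most serpin transcripts did not pass the test, and those that did were mostly lower on the high-fat diet. Of the 50 probe sets 7 were lower, in 5 genes, and 1 was higher. Over all probe sets on the array 3.26% passed, 1.23% lower and 2.04% higher, and of all genes with 1 symbol 1.98% had a lower probe set and 3.66% a higher one. Clade A held 6 of the 7 lower probe sets, which belonged to Serpina4-ps1, Serpina10, Serpina11 and Serpina9, and clade B held Serpinb6a, which was lower, and Serpinb1a, which was higher. The median difference was -0.12 over the 18 probe sets of clade A, -0.01 over the 20 of clade B and -0.17 over the 12 of the other clades, against -0.01 over all probe sets. The 3 probe sets of Serpina4-ps1 carry the symbol of 1 gene, and without them 4 of 47 probe sets were lower. Leaving out single arrays moved the count of 7 to 4, which happened without control replicate 1, 2 or 3 or without HFD replicate 3. It was also 4 with control replicate 1 and HFD replicate 5 both left out. With ordinary rather than moderated variances the lower count was 3 and the higher count 0.

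**Figure D1:**
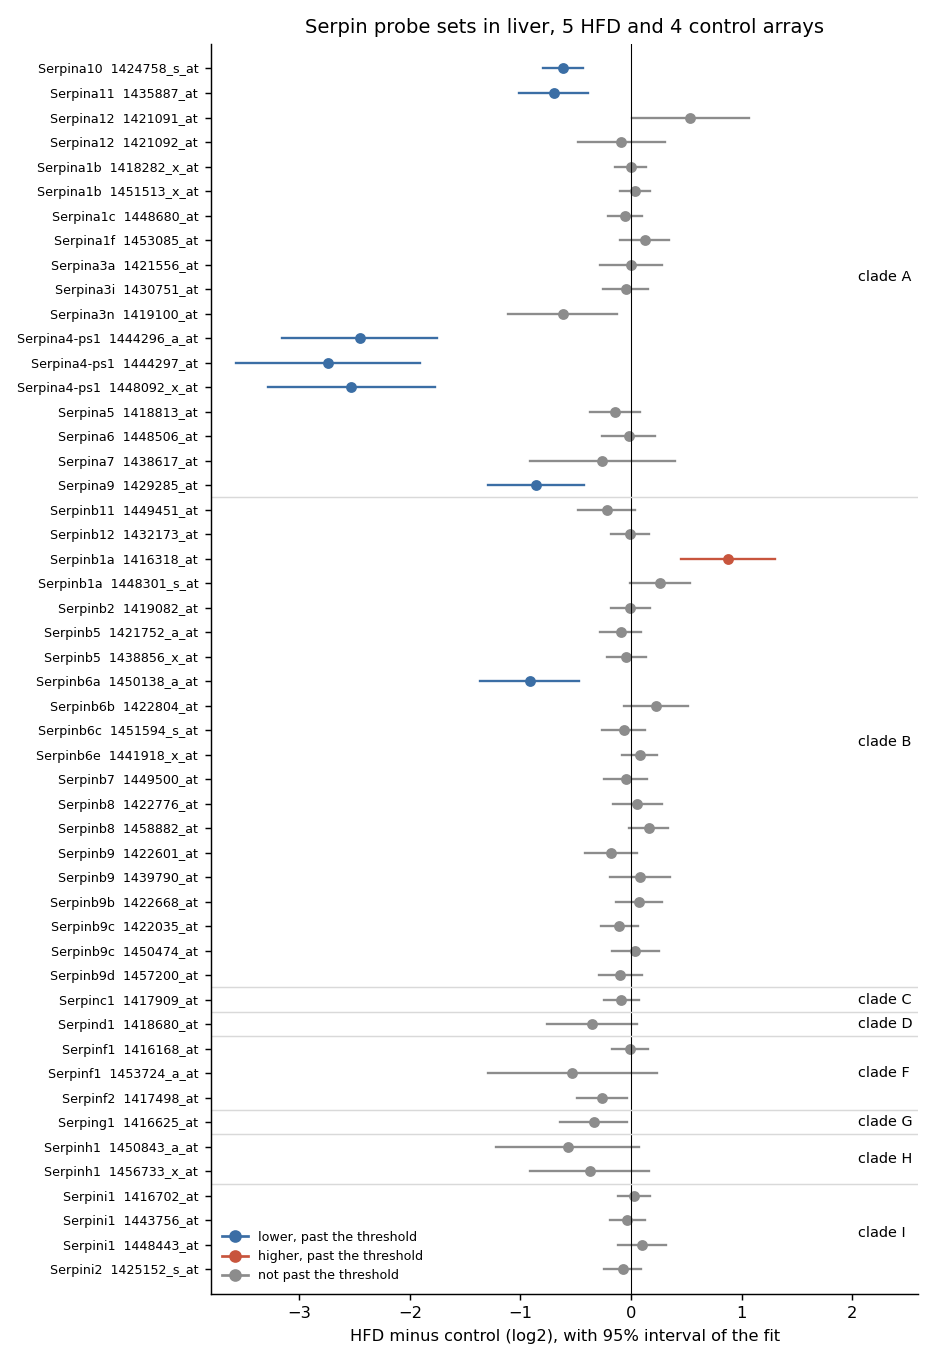
Difference between HFD and control (horizontal axis, log2) for all 50 serpin probe sets, grouped by clade; points are the fitted differences over 4 control and 5 HFD arrays and bars their 95% intervals. The 7 probe sets in blue were lower and the 1 in red was higher past the threshold, and the 3 of Serpina4-ps1 lie farthest from 0.

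Serpina4-ps1 changed most of all members. It is a transcribed pseudogene, and its human relative SERPINA4 encodes kallistatin, an inhibitor of tissue kallikrein. On probe set 1444297_at the controls stood at 1.39, 2.90, 1.88 and 2.45 (replicates 1 to 4), and the HFD arrays at 0.56, -0.79, -0.56, -1.38 and -0.76 (replicates 1 to 5). The groups did not overlap, and HFD replicate 1 lay closest to the controls. The difference was -2.74 ± 0.38, a 6.68-fold lower signal (limma adjusted p = 0.00445). The other probe sets gave -2.45 ± 0.32 (1444296_a_at, adjusted p = 0.00362 in limma) and -2.53 ± 0.34 (1448092_x_at, adjusted p = 0.00423 in limma). All 3 placed control replicate 1 lowest among the controls and HFD replicate 4 lowest among the HFD arrays. Names ending in _x_at mark probe sets with some probes that resemble other transcripts, those in _s_at probe sets shared by several transcripts, which can come from different genes, and those in _a_at probe sets common to variants of 1 gene. The plain _at probe set of Serpina4-ps1 fell as well, so the fall did not depend on the marked types.

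Serpina10 encodes the protein Z-dependent protease inhibitor, which inactivates coagulation factor Xa. Its controls stood at 0.25, 0.50, 0.34 and 0.18, and the HFD arrays at -0.18, -0.30, -0.28, -0.35 and -0.37. Each group was tight, with a standard deviation of 0.14 in control and 0.07 in HFD, and the groups did not overlap. The fall was 0.62 on the log2 scale (-0.62 ± 0.08, 1.53-fold, limma adjusted p = 0.00422), and the call held without any 1 array (difference -0.66 to -0.56). The only probe set is of the _s_at type (1424758_s_at).

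Serpina11 is a secreted serpin of clade A next to Serpina9 on the chromosome. Its controls stood at 0.81, 0.61, 0.61 and 0.12, and the HFD arrays at -0.02, 0.02, -0.22, -0.43 and -0.18. The groups did not overlap, although control replicate 4 came near HFD replicates 1 and 2. The difference was -0.70 ± 0.14 (1.63-fold lower, limma adjusted p = 0.0243). The call was lost without control replicate 1, 2 or 3 or HFD replicate 3 (limma adjusted p from 0.0646 to 0.0844).

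Serpina9, also known as centerin, is described in B cells of germinal centres. The controls stood at 0.62, 0.52, 1.11 and 0.06, and the HFD arrays at 0.07, -0.06, -0.55, -0.51 and -0.35. HFD replicate 1 lay just above control replicate 4, so the groups overlapped. The difference was -0.86 ± 0.20 (1.82-fold lower, limma adjusted p = 0.0425), the weakest of the calls. It was lost without control replicate 1, 2 or 3 or HFD replicate 2, 3, 4 or 5 (limma adjusted p from 0.0567 to 0.109). Of 17 probe sets of lymphocyte markers 0 passed the threshold in limma, and 3 had an unadjusted p under 0.05, against 6870 of all 41782. The mean of the 11 lymphocyte genes ran from 0.04 to 0.07 in control and from -0.13 to 0.02 in HFD, without overlap. The lowest p was that of Ptprc, the leukocyte gene CD45 (-0.93 ± 0.29, limma adjusted p = 0.126). Ms4a1, a B cell gene, differed by -0.31 ± 0.12 (limma adjusted p = 0.237). The part of these cells in the value of Serpina9 was not tested.

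**Figure D2:**
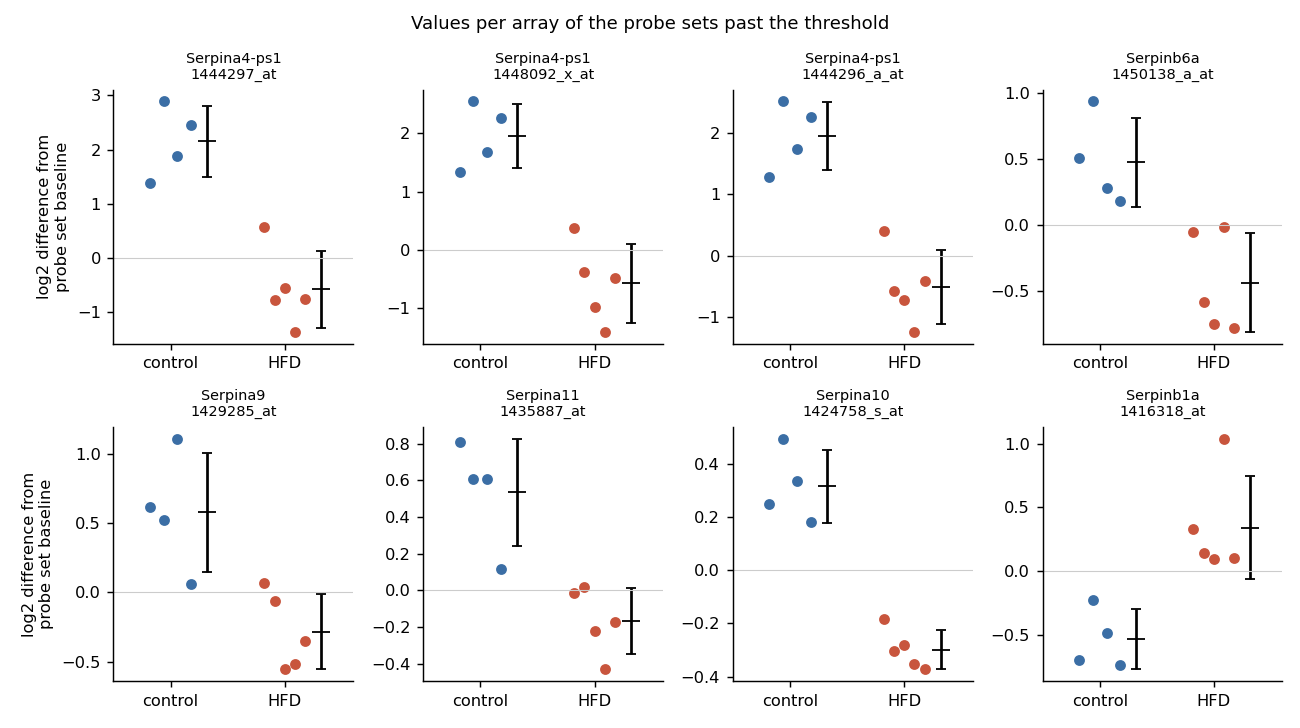
Log2 difference from the probe set baseline (vertical axis, own range in each panel) on each control (blue) and HFD (red) array for the 8 serpin probe sets past the threshold; points within a group stand in replicate order, and bars give mean ± SD (n = 4 and 5). The groups overlap only for Serpina9, and in Serpinb1a HFD replicate 4 stands well above the other HFD arrays.

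All 13 measured genes of chromosome 12 belong to clade A and lie in 1 cluster, and 4 of the 12 steps from one measured gene to the next passed a test of the difference in response. In chromosomal order the measured genes are Serpina10, Serpina6, Serpina1f, Serpina1b, Serpina1c, Serpina11, Serpina9, Serpina12, Serpina4-ps1, Serpina5, Serpina3a, Serpina3i and Serpina3n, by RefSeq's assembly GRCm38.p6, with other genes of the cluster not analysed here. The 12 pairs of measured neighbours were compared by an exact permutation test of the within-array difference (two-sided, all splits of the 9 arrays, smallest possible p 0.0159), with p-values adjusted over the pairs and probe sets of a gene averaged. The difference of Serpina11 was below that of Serpina1c (-0.65 ± 0.15), and the difference of Serpina12 was above that of Serpina9 (1.09 ± 0.26). Serpina1c has only 1 probe set of its own. Left out of the comparison was 1449321_x_at (-0.87 ± 0.20), which carries the symbols Serpina1e, Serpina1c and Serpina1b. Serpina4-ps1 stood apart from both its neighbours, lying below Serpina12 (-2.80 ± 0.39 for Serpina4-ps1 minus Serpina12) and below Serpina5 (2.43 ± 0.41 for Serpina5 minus Serpina4-ps1). Each of these 4 pairs had an adjusted p of 0.0476 in the exact permutation test. The remaining 8 pairs did not pass. Serpina6 against Serpina10 came closest at 0.59 ± 0.16 (exact permutation adjusted p = 0.0762), and the adjacent Serpina11 and Serpina9, both lower, differed by -0.16 ± 0.17 (exact permutation adjusted p = 0.485).

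**Figure D3:**
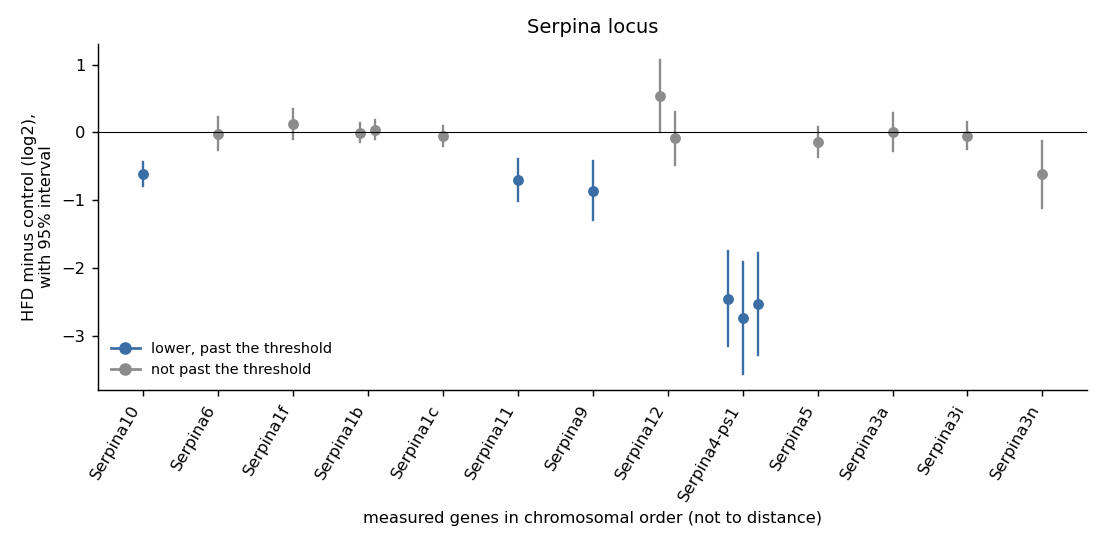
Difference between HFD and control (vertical axis, log2) for every probe set of the 13 measured Serpina genes of chromosome 12, placed in chromosomal order but not to distance; bars are 95% intervals of the fit. Serpina10, the adjacent Serpina11 and Serpina9, and Serpina4-ps1 were lower (blue), the genes between them did not pass (grey), and Serpina4-ps1 lies far below its neighbours. Probe sets that carry several symbols, among them 1449321_x_at with Serpina1b and Serpina1c, are not drawn.

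Of the 6 genes with a call, RefSeq promoter windows (GRCm38.p6, 250 bases before to 50 after a start) were at hand for Serpina11 and Serpinb6a. Serpina10, Serpina9, Serpina4-ps1 and Serpinb1a are named only. The windows below are shown because both genes fell and both hold the letters TTCNNNGAA of the STAT5 site, the factor through which growth hormone acts on liver genes. Both are on the minus strand and are written 5′ to 3′ with the match in capitals, at chr12:103989894-103990193 for Serpina11 and chr13:34002745-34003044 for Serpinb6a.
Serpina11: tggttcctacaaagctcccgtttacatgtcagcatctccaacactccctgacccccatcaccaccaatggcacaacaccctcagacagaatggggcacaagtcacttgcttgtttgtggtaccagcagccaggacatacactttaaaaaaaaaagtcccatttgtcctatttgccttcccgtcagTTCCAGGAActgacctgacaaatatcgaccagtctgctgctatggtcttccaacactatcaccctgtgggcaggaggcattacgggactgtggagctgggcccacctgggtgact
Serpinb6a: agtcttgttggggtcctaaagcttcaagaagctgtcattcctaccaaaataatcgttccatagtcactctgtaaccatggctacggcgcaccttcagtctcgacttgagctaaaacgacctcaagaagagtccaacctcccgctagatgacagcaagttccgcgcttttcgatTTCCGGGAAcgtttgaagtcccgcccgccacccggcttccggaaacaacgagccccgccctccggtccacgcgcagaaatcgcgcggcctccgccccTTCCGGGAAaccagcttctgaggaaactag
Counted from the start, the match begins at -65 in Serpina11, and the 2 matches of Serpinb6a begin at -77 and 20. A second start of Serpina11, whose window overlaps the one shown, has the same match at -51, and the other start of Serpinb6a held none of the motifs searched.

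The windows of 31 member genes (37 starts) were searched on both strands for the STAT5 letters above, CAAAGTNCA (HNF4), TTGCNNAA (C/EBP), the HNF1 motif and the TATA box, with overlaps between motifs allowed. The STAT5 letters occurred in 8 of the 37 serpin windows (21.6%), which belong to 6 genes since overlapping windows of Serpina11 and of Serpinb2 each count more than once, and in 8.30% of all 32851 windows. They also stood in windows of genes that did not pass, such as Serpina1f and Serpina3i. The C/EBP letters occurred in 10 serpin windows (27.0%), which belong to 8 genes, against 10.8% of all. The TATA box occurred in 10 (27.0%), which belong to 7 genes, against 13.6%. Here too, several windows of 1 gene count separately. The HNF4 letters were found in 1 serpin window, that of Serpind1, against 1.41% of all, and the HNF1 motif in 0 against 0.399%. A match describes the letters of a window and is not a measured site.

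Antitrypsin, the main inhibitor of neutrophil elastase in plasma, is encoded in mice by genes of the Serpina1 group. None of the 4 probe sets paired with exactly 1 symbol of that group passed. Serpina1b differed by 0.00 ± 0.06 (1418282_x_at) and 0.04 ± 0.06 (1451513_x_at), Serpina1c by -0.05 ± 0.07 and Serpina1f by 0.12 ± 0.10. The 95% intervals of the Serpina1b and Serpina1c probe sets all lay between -0.21 and 0.17. Beside these members, 3 probe sets carry several Serpin symbols each and cannot be given to 1 gene. Of the 2 that carry Serpina1 symbols, both of the _x_at type, 1449321_x_at differed by -0.87 ± 0.20 (limma adjusted p = 0.0390) and 1420553_x_at by -0.29 ± 0.10 (limma adjusted p = 0.158). On 1449321_x_at the controls stood at 0.66, 0.41, 0.80 and 0.16 and the HFD arrays at 0.01, -0.01, -0.88, -0.31 and -0.61, without overlap. The third, with 4 Serpinb9 symbols, differed by -0.09 ± 0.07.

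The hormone carriers and the remaining clade A inhibitors did not pass. Serpina6, the corticosteroid-binding globulin, differed by -0.02 ± 0.11 (95% interval -0.26 to 0.22). Serpina7, the thyroxine-binding globulin, differed by -0.26 ± 0.30, with controls between -0.29 and 0.07. Its HFD arrays fell apart, replicates 1 and 2 at -1.09 and -1.08 and replicates 3, 4 and 5 at 0.21, -0.03 and 0.32, so the wide interval of -0.91 to 0.40 reflects spread within the HFD group. Serpina5, the protein C inhibitor, differed by -0.15 ± 0.10.

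Serpina12 encodes vaspin, a serpin of adipose tissue. Probe set 1421091_at stood at 0.00, 0.00, -0.30 and -0.39 in control and at 0.76, 0.58, 0.67, -0.58 and 0.41 in HFD. All HFD arrays but replicate 4 lay above every control, and HFD replicate 4 lay below them all. The difference was 0.54 ± 0.24 and did not pass (limma adjusted p = 0.299), while without HFD replicate 4 it was 0.77 and passed (limma adjusted p = 0.00985). Its other probe set, 1421092_at, differed by -0.09 ± 0.18. Of the 10 adipocyte probe sets 1 was higher, that of the lipid droplet gene Cidec (2.25 ± 0.38), and their median difference was 0.07. Car3 differed by 3.26 ± 1.18 without passing, and Retn and Lep, which encode resistin and leptin, by 0.14 ± 0.14 and 0.08 ± 0.10. The mean of the 6 measured adipocyte genes ran from -0.43 to 0.02 in control and from 0.35 to 0.51 in HFD. The adipocyte list is also high in HFD replicate 4 (0.43), and the part of adipose tissue in the values of Serpina12 was not tested.

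Serpina3n is a gene of the antichymotrypsin group and rises in the acute phase response. Its controls stood at -0.17, 0.36, 1.14 and 0.61, and the HFD arrays at -0.47, -0.28, 0.03, 0.08 and -0.03. Control replicate 1 lay among the HFD arrays. The difference of -0.62 ± 0.22 did not pass (limma adjusted p = 0.187), and this was the first member beyond the threshold, Serpina9 being the last within it. Serpina3a and Serpina3i differed by 0.00 ± 0.13 and -0.05 ± 0.09. Among 47 probe sets of 27 acute phase genes, 1 was lower, Apcs, the serum amyloid P component (-1.02 ± 0.15), and 1 was higher, Orm3, an orosomucoid (1.35 ± 0.30). Orm1 (-0.70 ± 0.17) and Saa1 (-1.87 ± 0.47) did not pass. The mean of the acute phase list ran from 0.05 to 0.53 in control and from -0.23 to 0.17 in HFD, and both it and Serpina3n were highest in control replicate 3.

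In clade B, 18 of 20 probe sets did not pass, and the 2 calls went in opposite directions. Serpinb1a inhibits neutrophil elastase inside myeloid and epithelial cells and is also made by hepatocytes. On 1416318_at its controls stood at -0.70, -0.22, -0.49 and -0.74, and the HFD arrays at 0.33, 0.14, 0.10, 1.04 and 0.10. The groups did not overlap, and HFD replicate 4 was far above the rest. The difference was 0.88 ± 0.19 (1.84-fold higher, limma adjusted p = 0.0365). The call was lost without any 1 control array or without HFD replicate 1, 2 or 3 (limma adjusted p from 0.0501 to 0.104), and without HFD replicate 4 the difference was 0.70 and passed. The other probe set of the gene, 1448301_s_at, differed by 0.26 ± 0.12 and did not pass (limma adjusted p = 0.332). The second minus the first gave -0.62 (exact permutation p = 0.0159, adjusted p = 0.238 over the 15 pairs of probe sets of 1 gene). Of 11 probe sets of neutrophil markers 1 was lower, that of S100a9 (-1.97 ± 0.45), and none higher. S100a8 differed by -2.04 ± 0.55 without passing, the median of the list was -0.13, and its mean ran from 0.06 to 0.24 in control and from -0.70 to -0.08 in HFD. Their part in the value of Serpinb1a was not tested.

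Serpinb6a is an intracellular inhibitor of cathepsin G and other trypsin-like or chymotrypsin-like proteases. Its controls stood at 0.51, 0.94, 0.28 and 0.18, and the HFD arrays at -0.05, -0.58, -0.75, -0.01 and -0.78. The groups did not overlap, and HFD replicates 1 and 4 lay nearest to the controls. The difference was -0.91 ± 0.20 (1.88-fold lower, limma adjusted p = 0.0368, probe set 1450138_a_at). The call was lost without any 1 control array or without HFD replicate 2, 3 or 5 (limma adjusted p from 0.0516 to 0.109). Its relatives in the same cluster of chromosome 13 did not pass, with Serpinb6b at 0.23 ± 0.13, Serpinb6c at -0.07 ± 0.09 and Serpinb6e at 0.08 ± 0.07.

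Markers of Kupffer cells, the liver's resident macrophages, and of endothelial cells were lower along with Serpinb6a. Of the 21 probe sets of 15 Kupffer cell genes 13 were lower and none higher, in 11 genes. The lowest p-values were those of Csf1r, the receptor of macrophage growth factor (-1.15 ± 0.18), and Timd4 (-1.16 ± 0.20), and Clec4f, the lectin that defines these cells, differed by -1.39 ± 0.33. The mean of the list was 0.94, 1.27, 0.73 and 0.16 in control and -0.37, -0.73, -0.59, 0.11 and -1.27 in HFD. Within the controls Serpinb6a and the list were both highest in replicate 2 and lowest in replicate 4, and within HFD both were highest in replicate 4 and lowest in replicate 5. The endothelial list had the same highest and lowest arrays in both groups, from 0.09 to 0.51 in control and from -0.83 to 0.16 in HFD, with 4 of 29 probe sets lower (Fcgr2b and Stab1). So did the list of other protease inhibitors given below, from -0.03 to 0.11 in control and from -0.19 to 0.06 in HFD. The cholangiocyte list shared these highest and lowest arrays as well, from -0.07 to 0.09 in control and from -0.06 to 0.08 in HFD. The remaining lists did not, those of hepatocytes and stellate cells among them. The part of Kupffer or endothelial cells in the value of Serpinb6a was not tested. Hepatocyte markers had list means from -0.05 to 0.15 in control and from -0.13 to 0.15 in HFD, with 1 of 21 probe sets lower (Hnf4a) and 1 higher (Apob).

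**Figure D4:**
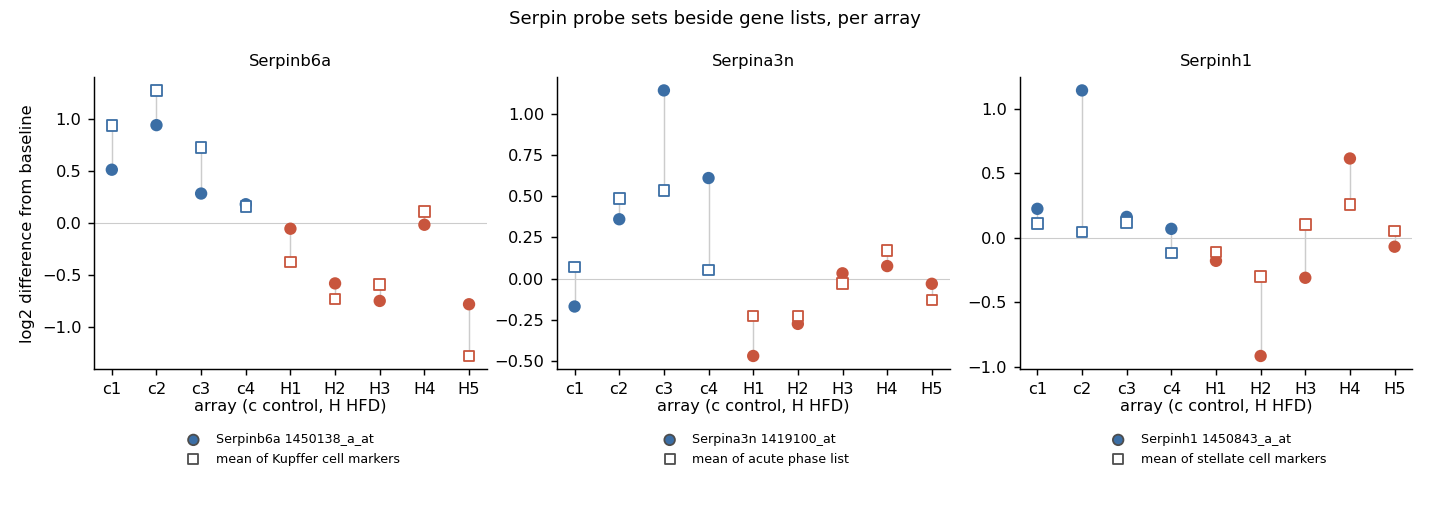
Log2 difference from baseline (vertical axis) on each array for a serpin probe set (filled circles) and the mean of a gene list (open squares), with controls in blue and HFD in red. Serpinb6a and the Kupffer cell list share their highest and lowest arrays within each group. The endothelial and cholangiocyte lists and the list of other protease inhibitors, which are not drawn, share them too. Serpina3n and the acute phase list are both highest in control replicate 3.

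The 18 probe sets of clade B that did not pass ran from -0.22 to 0.26. Serpinb9, the inhibitor of granzyme B, differed by -0.18 ± 0.11 and 0.08 ± 0.12 on its probe sets, and the 6 probe sets of the Serpinb9 group ran from -0.18 to 0.08. Serpinb8 differed by 0.06 ± 0.10 and 0.16 ± 0.08. On the second of these, 1458882_at, the groups did not overlap, yet the difference did not pass (limma adjusted p = 0.363). Serpinb2, the plasminogen activator inhibitor of the clade, differed by -0.01 ± 0.08 and Serpinb5, maspin, by -0.09 ± 0.08 and -0.04 ± 0.08. Serpinb11 was the lowest of the chromosome 1 cluster at -0.22 ± 0.12. Counted over all members, the groups did not overlap and HFD was lower in 6 probe sets and higher in 2, where 3.50% and 4.50% of all probe sets did so.

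No probe set of the other clades passed in limma. An unadjusted p under 0.05 was found for 2 of their 12, those of Serpinf2 and Serping1, against 6870 of all 41782. Serpinc1, antithrombin, the chief inhibitor of thrombin and factor Xa, stood at 0.08, 0.08, 0.02 and -0.02 in control and at -0.01, 0.01, -0.08, 0.03 and -0.20 in HFD. These values lie close together and overlap, and the difference of -0.09 ± 0.07 had a 95% interval of -0.25 to 0.07 (limma adjusted p = 0.612). It was -0.051 without HFD replicate 5. Serpind1, heparin cofactor II, stood at 0.22, 0.06, 0.01 and -0.01 in control and at 0.03, 0.04, -0.45, -0.12 and -0.94 in HFD. HFD replicates 3 and 5 alone lay far below, and the difference was -0.35 ± 0.18 (limma adjusted p = 0.378). It was -0.19 without HFD replicate 5.

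Serpinf2, antiplasmin, the inhibitor of plasmin, stood at -0.02, 0.21, 0.32 and 0.09 in control and at 0.02, 0.07, -0.31, -0.17 and -0.16 in HFD. The groups overlapped, and the difference was -0.26 ± 0.10 (limma adjusted p = 0.230). Serping1, the C1 inhibitor, which controls complement C1 and plasma kallikrein, stood at 0.23, 0.23, 0.13 and 0.00 in control and at 0.00, 0.08, -0.28, -0.09 and -0.64 in HFD. HFD replicate 5 was the lowest, and the difference was -0.34 ± 0.14 (limma adjusted p = 0.248) and -0.22 without that array. The same array was lowest on 1453724_a_at of Serpinf1, the pigment epithelium-derived factor, at -1.69, with HFD replicate 3 at -0.97 and every other array between -0.01 and 0.24. That probe set differed by -0.53 ± 0.35 and the other of the gene, 1416168_at, by -0.01 ± 0.07.

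Serpinh1, or Hsp47, is a collagen chaperone of the endoplasmic reticulum and no protease inhibitor. On 1450843_a_at it stood at 0.22, 1.14, 0.16 and 0.07 in control and at -0.18, -0.92, -0.31, 0.62 and -0.07 in HFD. Control replicate 2 and HFD replicate 4 were high and HFD replicate 2 low, and the groups overlapped. The difference was -0.57 ± 0.29 on this probe set and -0.37 ± 0.24 on 1456733_x_at (limma adjusted p = 0.369 and 0.499), and without control replicate 2 the first was -0.32. Of the 33 probe sets of its collagen partners 1 was lower, that of the prolyl isomerase Ppib (-0.51 ± 0.11). The mean of the 14 stellate cell markers ran from -0.12 to 0.12 in control and from -0.30 in HFD replicate 2 to 0.26 in HFD replicate 4, and 3 of their 31 probe sets were higher (Rgs5 and Lrat). Serpini1, neuroserpin, differed most on 1448443_at, where controls stood at -0.08, 0.06, -0.20 and -0.04 and the HFD arrays at 0.26, 0.11, 0.01, -0.19 and -0.01. The groups overlapped, and the difference was 0.10 ± 0.10 (limma adjusted p = 0.672). It was 0.047 without HFD replicate 1, 0.056 without control replicate 3 and 0.16 without HFD replicate 4. Serpini2, pancpin, differed by -0.08 ± 0.07.

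Probe sets were also counted by the type that their names mark. Of the 15 of the _x_at, _s_at or _a_at types 4 were lower and none higher, and of the 35 plain _at probe sets 3 were lower and 1 higher. By type, 1 of 6 _x_at, 1 of 4 _s_at and 2 of 5 _a_at probe sets were lower. Over all probe sets on the array 1.23% were lower and 2.04% higher. These shares were not counted by type, so the types cannot be compared here. Serpina4-ps1 counts among the plain and the marked ones. The lower ones of the marked types belonged to Serpina4-ps1, Serpina10 and Serpinb6a, and of these genes the last 2 have no plain _at probe set.

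Of 45 probe sets for 30 proteases that serpins inhibit 1 was lower and none higher, while 12 had an unadjusted p under 0.05, against 6870 of all 41782, and the median was -0.08. The lower one was that of C1ra, a protease of complement C1 that Serping1 inhibits (-0.56 ± 0.11, limma adjusted p = 0.0235). F10, whose active form Serpina10 inhibits, differed by -0.36 ± 0.11 (limma adjusted p = 0.122), F9 by 0.29 ± 0.08 (limma adjusted p = 0.0907) and the membrane protease gene Prss8 by -0.53 ± 0.17. Among 36 probe sets of 14 receptors and cofactors, 1 was higher, Vldlr, a lipoprotein receptor that also takes up serpin complexes (0.58 ± 0.12). Vtn, vitronectin, differed by -0.32 ± 0.10 and did not pass.

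Other protease inhibitors and their relatives held more lower probe sets past the threshold than the target proteases did, though the difference of counts was not tested. Of 49 probe sets of 32 genes 5 were lower and 1 higher, where 1.23% and 2.04% of all probe sets were. The lists were closer by unadjusted p under 0.05, with 17 of 49 here and 12 of 45 for the proteases. Their medians were -0.10 and -0.08. Itih3, Itih5 and Itih2, heavy chains of the inter-alpha-trypsin inhibitor family, fell by 1.08, 0.97 and 0.59 on the log2 scale, with Fetub (-0.52 ± 0.11), fetuin B, and Spint2 (-0.31 ± 0.07), a Kunitz-type inhibitor. Wfdc2 rose (2.30 ± 0.27).

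Lists of hormone signalling, sex-biased and protein folding genes were read in the same way. Their part in the values of clade A was not tested. In the growth hormone and STAT5 list 5 of 43 probe sets were lower and none higher. These were Socs2, a feedback inhibitor of the pathway (-2.98 ± 0.49 and -2.96 ± 0.47), Igf1 (-0.69 ± 0.10), Igfals (-0.82 ± 0.16) and Hnf4a (-0.91 ± 0.18). In a list of sex-biased liver genes, which holds male-biased and female-biased ones together, 9 of 29 probe sets were lower, in 5 genes that include Nudt7 (4 probe sets from -1.34 to -0.46), Ugt2b38 (-2.77 ± 0.39) and C6 (-0.91 ± 0.15), and Cyp2b9 was higher (4.19 ± 0.67). In the list around steroid and thyroid hormone, whose carriers are Serpina6 and Serpina7, 2 of 30 were higher, Thrsp (0.86 ± 0.20) and Dio1 (0.56 ± 0.13). Of 72 probe sets for folding and degradation in the endoplasmic reticulum, where antitrypsin is matured, 2 were higher, both of Lman1 (1.53 ± 0.20 and 0.59 ± 0.12), the cargo receptor that carries some secreted proteins to the Golgi.

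No marker of cholangiocytes (12 probe sets), red blood cells (7) or pancreas (9) passed in limma. At an unadjusted p under 0.05 there were 0, 1 and 1, against 6870 of all 41782. The lowest p-values were those of Sox9 (-0.16 ± 0.11), Alas2 (0.27 ± 0.10) and Cela1 (-0.87 ± 0.29).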

How the data were processed

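Liver RNA was amplified, biotinylated and hybridised to Affymetrix arrays. Per the series' design text, the authors used RMA with quantile normalization and then subtracted from every probe set its across-sample median. The values show that this was not the median of the arrays compared here alone. RMA is also named, with no version, in the submitters' processing notes. The deposited values were taken as log2, since RMA gives log2 values and they run around 0 with both signs, though no log base is given in the sources used here. Centring leaves group differences intact and removes levels, so no filter on low signal was applied.

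The table held 41842 probe sets, of which 60 controls were left out. The annotation gave 32801 probe sets 1 symbol, 862 several and 8119 none. All 37 member genes matched RefSeq by Entrez ID with 0 symbols changed. Each probe set was fitted by itself, because choosing 1 per gene by its spread favours larger differences, with limma 3.58.1 in R 4.3.3 (lmFit, eBayes, two-sided, Benjamini-Hochberg over all 41782, threshold 0.05), without covariates. The fit was run on simulated data as a check of the code. Noise there was independent between arrays and probe sets, so that check does not measure how sound the calls are. For single values and pairs of neighbours, an exact permutation test enumerated every division of the 9 arrays into 4 and 5.

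Replicates were numbered in accession order, which pairs none. Precision is limited by the number of arrays. The members, gene lists and tests were chosen with earlier results of these data known. Values per array are given for every probe set past the threshold, for the one with the lowest p in each clade, and for a few others named for their role or their spread and chosen after their values were seen. From each list up to 4 genes of lowest p or those past the threshold are named, and Clec4f and Ms4a1 were added for their role after their values were seen. Alternatives are in the closing section.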

Additional observations from a re-analysis of the deposited data

Results flagged for a closer look

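The lowest or highest value of each probe set in each group was set against the others of its group by Dixon's criterion. Of 100 groups of values 8 held a value that stood apart, where chance gives about 1 in 20. For Serpina12 (1421091_at) HFD replicate 4 was at -0.58 and the other HFD arrays between 0.41 and 0.76. For Serpinb1a (1416318_at) the same array was at 1.04, with the others between 0.10 and 0.33. For Serpinh1 (1450843_a_at) control replicate 2 was at 1.14, with the others between 0.07 and 0.22. Control replicate 1 stood apart for Serpina3i (0.26, others between -0.03 and 0.00), Serpinf1 on 1453724_a_at (0.24, others between -0.01 and 0.01) and Serpini1 on 1443756_at (-0.03, others at 0.01). For Serpinb9c, HFD replicate 2 was at 0.14 on 1422035_at (others between -0.10 and -0.03), and control replicate 4 at -0.18 on 1450474_at (others between -0.01 and 0.01).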

How the results depend on the processing

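Subtracting array medians or a further quantile normalization moved the median difference of all probe sets by under 0.01 and left 7 serpin probe sets lower and 1 higher. So did robust eBayes, array weights, a 1.5-fold minimum and leaving out the 25% least variable probe sets. With 1 row per gene, by the largest spread or by averaging, 5 genes were lower and 1 higher. Without _x_at, _s_at and _a_at probe sets 4 serpin probe sets passed, 3 of them lower. With an unmoderated fit 3 passed, 3 lower and 0 higher, and at an adjusted p under 0.01 the numbers were 4, 4 and 0. They were also 4, 4 and 0 when control replicate 1 and HFD replicate 5 were both left out, a choice made after seeing the data. Leaving out each array in turn gave 4 to 8 serpin calls, 4 to 7 lower and 0 to 2 higher. Over the whole array 1363 probe sets passed, and 905 genes with probe sets averaged, 904 without the marked types, 427 unmoderated, 369 at an adjusted p under 0.01, 849 with the fold minimum and 546 to 1481 without 1 array. No difference of a probe set past the threshold changed sign under any of these alternatives. The calls of Serpina10 and of all 3 Serpina4-ps1 probe sets held in every refit except 1444297_at unmoderated (adjusted p = 0.0515). The 4 neighbour differences past the threshold kept their sign without any 1 array, where too few splits remain for their test to pass. No paired analysis was possible because the labels give no replicate numbers that groups share.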
